A study of Mus musculus with 3 samples.

Results

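YB-1, encoded by Ybx1, belongs to a family of nucleic acid binding proteins that share the cold-shock domain, a small beta-barrel fold that grips single-stranded RNA and DNA. The genes described here are Ybx1, Ybx3 and Carhsp1. They were chosen by gene symbol, with no measured value in the rule, and are 3 of the 15403 named genes of the deposited table. These genes and the lists set beside them were, however, chosen with earlier results of these data known. Ybx1 and Carhsp1 are listed under their current symbols. Ybx3 stands in the table under its older symbol Csda, which RefSeq gives as a synonym of Ybx3 alone.

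Y-box proteins such as YB-1 coat cytoplasmic mRNA, help package it into ribonucleoprotein particles and restrain or protect it according to how densely they bind. YB-1 is also known to bind its own mRNA and limit its translation. HuR, encoded by Elavl1, is an RNA-binding protein that prefers U-rich and AU-rich stretches and is known in muscle cells for stabilising the mRNAs of myogenic factors such as Myog.

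The RNA was recovered by immunoprecipitation from whole-cell lysate of C2C12, an established mouse myoblast line, harvested on day 2 after a switch to 2% horse serum to induce differentiation. The sample records also list 20% fetal bovine serum for all 3 libraries. Sequencing gave a count of reads per gene. The antibodies were anti-YB-1, anti-HuR and control IgG, with 1 library for each, each from 500 µg of extract. The sample labels name no treatment or genetic change, while the table's column headings give all 3 libraries the same tag, siCtl, which the labels do not explain. No difference between libraries therefore has a replicate check, and no p-value for a difference between antibodies is given apart from those the authors deposited. The series asks which mRNAs are recovered with each protein and whether the proteins act together on Myog mRNA.

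Levels are normalized counts, meaning reads divided by the authors' size factor for that library. The libraries held 10617029 to 39038366 reads in named genes. The 11 measured muscle markers were present in each library, with a summed level of 608120 with anti-YB-1, 659885 with anti-HuR and 418416 with IgG and none at 0. Of these, 5 were highest with anti-YB-1, 4 with anti-HuR and 2 with IgG. The IgG library also held 20.8% of its reads in 1368 genes that exceeded both other libraries by 8-fold or more. The 6 endothelial markers summed to 10477 with IgG against 26.6 with anti-YB-1 and 1.72 with anti-HuR, where 1 and 5 of them were at 0. The 5 adipocyte markers summed to 5959, 1.06 and 10.3 in the same order, with 4 at 0 in each antibody library. The 6 adult fibre markers summed to 642401 with IgG, 29531 with anti-YB-1 and 26481 with anti-HuR. The 6 immune markers summed to 287, 15.4 and 12.9 in the same order. Of the immune markers, 5 were highest with IgG and 1 with anti-HuR, while 5 were at 0 in each antibody library. Each antibody sum of these markers thus comes from a single gene. The 2 neuronal markers summed to 2848 with IgG, 4577 with anti-YB-1 and 9661 with anti-HuR, but 1 of them was highest with IgG, 1 was highest with anti-HuR, and 1 was at 0 in each antibody library, so the sum with either antibody comes from a single gene. Each ratio to IgG below rests on that library, and the part these other transcripts play in it was not tested. The ratio of HuR to YB-1 takes no reads from IgG. The authors' size factors come with a table of all 3 libraries, so IgG may still enter that ratio through them.

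Ybx1 mRNA was the most abundant of the 3 and differed little between libraries, although it encodes the protein that the YB-1 antibody targets. Its normalized count was 44148 with anti-YB-1, 36771 with anti-HuR and 43225 with IgG. The level with the YB-1 antibody was thus close to the level with IgG, and the HuR library was the lowest. The ratio of YB-1 to IgG was 1.02 (95% counting interval 1.01 to 1.04), that of HuR to IgG was 0.851 (0.836 to 0.865) and that of HuR to YB-1 was 0.833 (0.823 to 0.843). Elavl1 mRNA, the message of the other protein precipitated, was by contrast 8.28-fold higher with its own antibody than with IgG. Ranked by YB-1 over IgG among 13022 genes, 44.4% lay at or above Ybx1, which places it near the middle. The authors' deposited table gives Ybx1 a moderated log2 fold of 0.03 (SE 0.69). With 1 library per antibody, the deposited standard errors and p-values of the members hold no measure of spread between precipitations with the same antibody. Scaling decides the direction of the ratio of YB-1 to IgG for Ybx1. On a log2 scale it was 0.03 with the authors' size factors, 0.26 scaled to total reads and -1.17 centred on ribosomal protein genes.

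Ybx1 lies on chromosome 4 from 119277981 to 119294604 on the minus strand of GRCm38. Its main transcript has 8 exons and 1628 nt, and codes for 322 amino acids. The 3' UTR of 418 nt has a GC content of 31.6%. It holds no ATTTA, the AU-rich pentamer, but 12 overlapping matches to TTTTT, against a median of 1.0 in 14178 windows of the same length cut from the starts of mouse 3' UTRs. Because YB-1 is reported to bind letters of the form TCCAACA or TCCAGCA (with U for T in RNA) in the 3' UTR of the human YB-1 message, these were searched on the sense strand. Both were found once in mouse Ybx1, 27 nt apart from start to start. Of the windows of that length, 2.63% held TCCAACA, 4.96% held TCCAGCA and 0.212% held both. The mouse sites are shown because they hold the letters reported for the human message; capitals mark the match, and the strand is the mRNA strand in GENCODE M21.
Ybx1 first site: gtttggtcaTCCAACAagaagaaat
Ybx1 second site: atatgaaatTCCAGCAataagaaat
The first runs across an exon junction, with its ends at 119278934 and 119278344 on chromosome 4, and the second lies at chr4:119278317-119278341, both on the minus strand. A match describes letters only, and the table counts reads over the whole gene, so recovery at these sites was not measured.

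Ybx3 mRNA was lowest in the YB-1 library. Ybx3, also known as ZONAB or dbpA, is a Y-box protein with a cold-shock domain much like that of YB-1. In dog kidney cells it is known as a partner of the tight junction protein ZO-1. Its normalized count was 13766 with anti-YB-1, 18535 with anti-HuR and 23110 with IgG. Both antibody libraries were below IgG, with YB-1 the lower of them. The YB-1 level was 1.68-fold below IgG (1.64 to 1.72) and the HuR level 1.25-fold below IgG (1.22 to 1.28). HuR over YB-1 was 1.35 (1.32 to 1.37), so Ybx3 was the only one of the 3 members with more signal in HuR than in YB-1 on the authors' scaling. Centred on ribosomal protein genes, Ybx1 and Carhsp1 also lay above 0 in that ratio, at 0.48 and 0.31 on a log2 scale, with Ybx3 at 1.17. For Ybx3 the authors' deposited table gives a moderated log2 fold of -0.65 for YB-1 over IgG (SE 0.76, DESeq2 adjusted p = 0.845).

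Ybx3 lies on chromosome 6 from 131364855 to 131388476 on the minus strand of GRCm38, and its main transcript has 10 exons and 1853 nt. Its 3' UTR of 584 nt holds 2 ATTTA pentamers, where 55.1% of same-length windows hold at least 1, with a median of 1.0. It holds neither of the letters found in Ybx1. It has 1 TCCATCA, a form reported for Y-box proteins such as the germ-cell paralog Ybx2, which 4.8% of same-length windows hold. These stretches are shown to set the AU-rich and Y-box letters of Ybx3 beside those of Ybx1, with the match in capitals.
Ybx3 Y-box letters: cagcaagtgTCCATCAagctgtatc
Ybx3 first pentamer: aagtgtcatgATTTAagaagaaatt
Ybx3 second pentamer: ttatgcccttATTTAttcctaggat
They lie at chr6:131365211-131365235, chr6:131364972-131364996 and chr6:131364947-131364971, all on the minus strand.

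By the authors' scaling, Carhsp1 mRNA was highest with anti-YB-1. Carhsp1 encodes a small cold-shock protein that calcineurin dephosphorylates, and in mouse macrophages it is known to bind and stabilise Tnf mRNA. Its normalized count was 4932 with anti-YB-1, 3641 with anti-HuR and 2563 with IgG. On the authors' scaling, the order of the libraries was the reverse of that of Ybx3. YB-1 was 1.92-fold above IgG (1.81 to 2.05), HuR was 1.42-fold above IgG (1.33 to 1.52), and HuR was 1.35-fold below YB-1 (1.31 to 1.41). By YB-1 over IgG, 18.5% of 13022 genes lay at or above Carhsp1. Its log2 ratio of YB-1 to IgG of 0.94 became -0.25 when centred on ribosomal protein genes. HuR over IgG became 0.01 and HuR over YB-1 became 0.31, so the YB-1 library was then the lowest, as for Ybx3. For Carhsp1 the authors' deposited table gives a moderated log2 fold of 0.80 (SE 0.80, DESeq2 adjusted p = 0.845).

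Carhsp1 lies on chromosome 16 from 8658580 to 8672155 on the minus strand of GRCm38, with 4 exons. Most of its transcript of 2858 nt is a 3' UTR of 2361 nt, behind a coding region for 148 amino acids. That 3' UTR holds 1 ATTTA where windows of its length have a median of 4.0, and 8 matches to TTTTT where they have a median of 12. None of the 3 Y-box forms searched was found in it. Its single pentamer is printed for comparison with those of Ybx3, with the match in capitals, and lies at chr16:8660205-8660229 on the minus strand.
Carhsp1 pentamer: gtggtgctttATTTAaaaacagaat

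**Figure D1:**
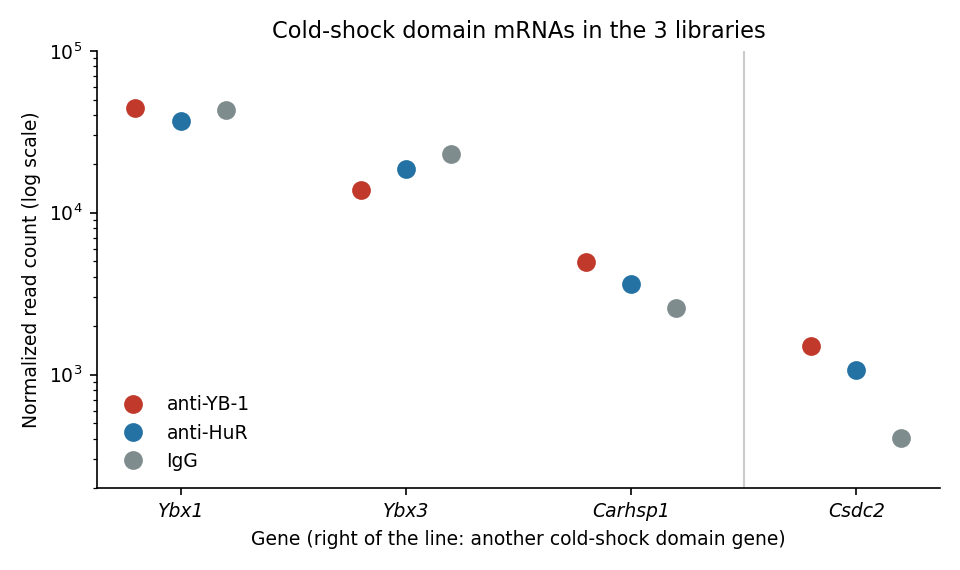
Normalized read count (log axis) of 4 cold-shock domain genes in the YB-1, HuR and IgG libraries, 1 point per library, with the 3 members left of the line. Ybx1 lies between 36771 and 44148 in each library, Ybx3 is lowest with the YB-1 antibody, and Carhsp1 and Csdc2 are highest with it on the authors' scaling (centred on ribosomal protein genes, Carhsp1 turns to -0.25 in log2 YB-1 over IgG).

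No member differed by 2-fold or more between any 2 libraries on the authors' scaling, so 0 of 3 were called in each direction of each comparison. For YB-1 over IgG, 17.0% of all genes lay 2-fold or more above IgG and 32.8% lay 2-fold or more below it. For HuR over IgG the shares were 18.9% and 31.1%, and for HuR over YB-1 they were 19.3% and 10.6%. With 3 members, a count of 0 is not a result about them, and other scalings change it. In YB-1 over IgG, Carhsp1 passed 2-fold upward scaled to total reads or to the median of all genes, at log2 ratios of 1.18 and 1.12. Centred on ribosomal protein genes, Ybx1 and Ybx3 passed it downward there, at -1.17 and -1.95, and Ybx3 passed it upward in HuR over YB-1, at 1.17. The ribosomal protein genes themselves had median log2 ratios of 1.20, 0.49 and -0.74 in these comparisons, and centring on them subtracts those values from every gene. It moves the numbers of genes 2-fold or more above and below IgG with anti-YB-1 from 2209 and 4265 to 270 and 7854, those with anti-HuR from 2466 and 4051 to 1473 and 5323, and those of HuR over YB-1 from 2289 and 1263 to 4424 and 448. The members' log2 ratios ran from -0.75 to 0.94 for YB-1 over IgG, from -0.32 to 0.51 for HuR over IgG and from -0.44 to 0.43 for HuR over YB-1.

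The members did differ from one another, and this part of the data does not depend on how libraries are scaled, because a ratio of 2 folds within the same pair of libraries cancels the scaling. In YB-1 over IgG the fold of Carhsp1 was 3.23 times that of Ybx3 (approximate 95% counting interval 3.02 to 3.45) and 1.88 times that of Ybx1 (1.77 to 2.01). The fold of Ybx1 was in turn 1.71 times that of Ybx3 (1.67 to 1.76). YB-1 over IgG and HuR over YB-1 share the YB-1 library, so they are not separate results. In HuR over YB-1 the order was turned. There the fold of Ybx3 was 1.62 times that of Ybx1 (1.58 to 1.65) and 1.82 times that of Carhsp1 (1.75 to 1.90), while Ybx1 and Carhsp1 were 1.13 times apart (1.09 to 1.17). In HuR over IgG the folds of Ybx1 and Ybx3 were 1.06 times apart (1.03 to 1.09), and that of Carhsp1 was 1.67 times that of Ybx1 (1.56 to 1.79). These intervals cover counting error only, and whether the differences exceed the spread between separate precipitations could not be tested.

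**Figure D2:**
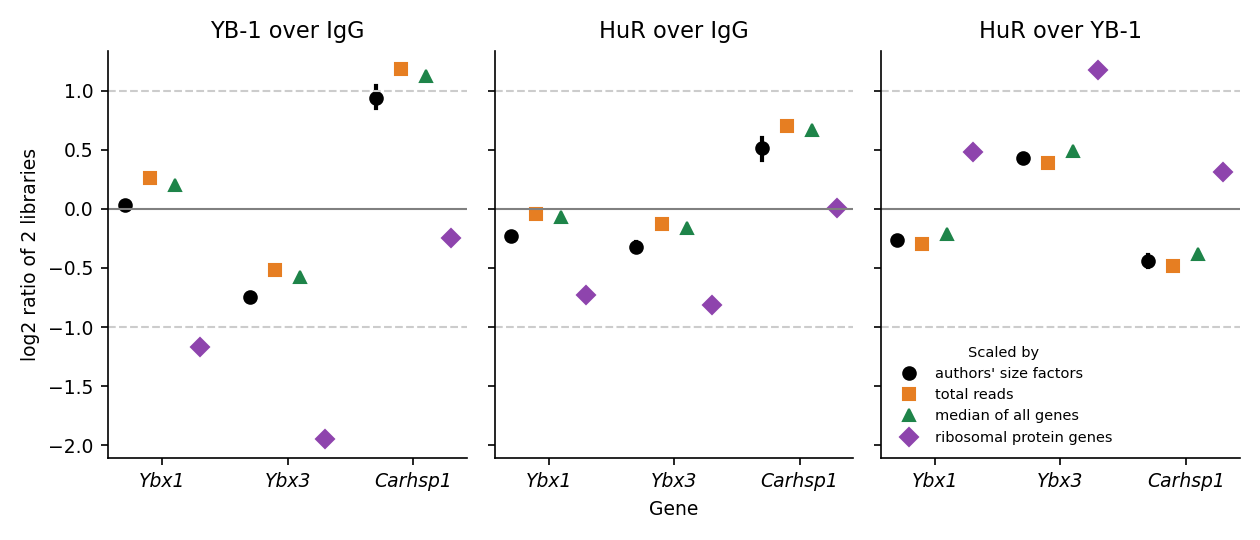
log2 ratio of each pair of libraries for the 3 members under 4 scalings, with black bars for the 95% counting interval of the authors' scaling and dashed lines at 2-fold. The order of the members within a panel is the same under each scaling, with Carhsp1 highest in both ratios to IgG and Ybx3 highest in HuR over YB-1, while centring on ribosomal protein genes moves each panel as a whole, to -1.17 for Ybx1 in YB-1 over IgG.

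Beside the members, 4 other cold-shock domain genes give the wider family. Csdc2, or PIPPin, is the paralog of Carhsp1 and is known as a brain RNA-binding protein in the rat. Its normalized count was 1492 with anti-YB-1, 1067 with anti-HuR and 404 with IgG, in the same library order as Carhsp1 on the authors' scaling. Relative to IgG it was 3.70-fold up with anti-YB-1 (3.17 to 4.33) and 2.64-fold up with anti-HuR (2.25 to 3.11). Both calls were lost when centred on ribosomal protein genes, where the log2 ratios of 1.89 and 1.40 became 0.69 and 0.91. HuR was 1.40-fold below YB-1 (1.31 to 1.50), a log2 ratio of -0.48 that turned to 0.26 when centred on ribosomal protein genes. In HuR over YB-1 the folds of Carhsp1 and Csdc2 were 1.03 times apart, with an interval of 0.957 to 1.11 that includes no difference. In YB-1 over IgG the fold of Csdc2 was 1.92 times that of Carhsp1 (1.63 to 2.26). The 3' UTR of Csdc2, of 1673 nt, holds no ATTTA and no TTTTT, where same-length windows have medians of 3.0 and 7.0. It holds 2 matches to TCCAGCA, which 15.5% of those windows hold at least once, and neither of the other Y-box forms.

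The germ-cell and stem-cell members were at or near 0 with both antibodies. Ybx2, which coats mRNAs in germ cells, had 80 reads with IgG and 0 in each antibody library. Set to a floor of 3 reads per library, its anti-YB-1 level was 115-fold lower and its anti-HuR level 71.0-fold lower than with IgG. These folds leave out the counting error of the 80 reads. Ybx2 thus belongs to the 1368 genes that exceeded both other libraries by 8-fold or more in IgG. The part that the other transcripts of the IgG library play in this was not tested. Lin28a, which blocks the maturation of a family of microRNAs in stem cells, had 21 reads with anti-YB-1 and 0 in the other 2 libraries. That makes the anti-HuR level at least 4.31-fold lower and the IgG level at least 1.62-fold lower than with anti-YB-1. Its paralog Lin28b had 1 read, in IgG. Of 5 cold-shock domain genes measured for YB-1 over IgG, 1 passed 2-fold upward (Csdc2) and 1 passed it downward (Ybx2), which is 20.0% each against 17.0% and 32.8% of all genes, and the median log2 ratio was 0.03 against -0.17. For HuR over IgG these counts were again 1 and 1 of 5, against 18.9% and 31.1% of all genes, and the median was -0.23 against -0.16. For HuR over YB-1 they were 0 and 0 of 4, against 19.3% and 10.6%, and the median was -0.35 against -0.06. With so few genes these counts are not a result about the family.

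**Figure D3:**
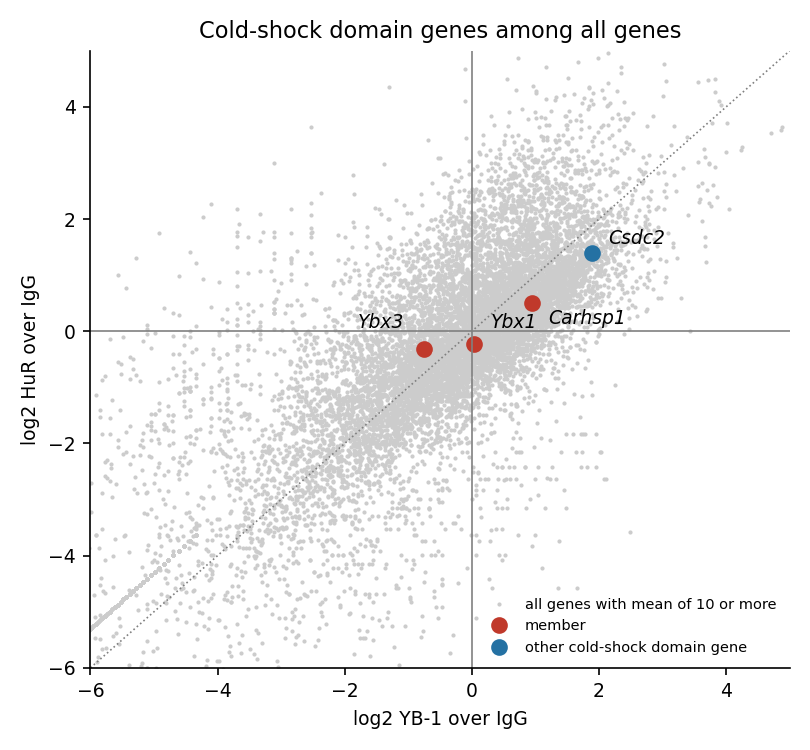
log2 ratio to IgG of the HuR library (vertical) against that of the YB-1 library (horizontal) for genes with a mean of 10 or more, with the members in red and Csdc2 in blue; the dotted line marks equal ratios, both axes share the IgG library, and 709 of 13003 genes fall outside the axes. The 4 genes are spread from -0.75 to 1.89 along the YB-1 axis and from -0.32 to 1.40 along the HuR axis.

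Per length of the main transcript, the order of levels was the same in each library. In the YB-1 library Ybx1 had 27118 normalized counts per kb, followed by Ybx3 with 7429, Carhsp1 with 1726 and Csdc2 with 599. In the HuR library the levels per kb were 22586, 10003, 1274 and 429 in that order, and in the IgG library 26551, 12471, 897 and 162. With 1 library per antibody the spread of neighbouring levels is not known. As a share of the summed signal per kb of the cold-shock domain genes described here, Ybx1 made up 73.5% with anti-YB-1, 65.9% with anti-HuR and 66.1% with IgG. Ybx3 made up 20.1%, 29.2% and 31.0%, and Carhsp1 4.68%, 3.71% and 2.23%. The shares of Ybx1 and Ybx3 in the HuR library were thus nearer to IgG than to YB-1, while that of Carhsp1 was nearer to YB-1. By raw reads among the 3 members alone, Ybx1 held 70.2% in YB-1 (95% Clopper-Pearson interval 70.0 to 70.5), 62.4% in HuR (62.0 to 62.7) and 62.7% in IgG (62.2 to 63.3).

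**Figure D4:**
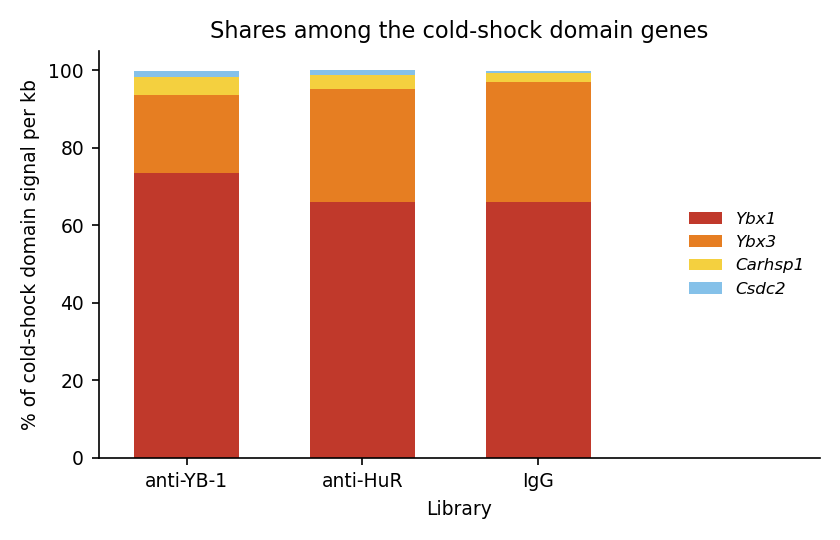
Share of each of 4 cold-shock domain genes in the summed signal per kb of main transcript of the 7 described here, by library. Ybx1 takes 73.5% of the YB-1 bar and 65.9% and 66.1% of the HuR and IgG bars, while Ybx3 takes 20.1% of the YB-1 bar and 29.2% and 31.0% of the others.

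Ybx1 and Carhsp1 have near-identical copies with which reads could be shared. The GENCODE transcripts of 6 processed pseudogenes matched Ybx1 over at least 100 nt at 90% identity or more, the closest being Gm11560 at 96.1% over 932 nt. Of these, E130201H02Rik had a row in the table, with 2 reads for anti-YB-1 and 0 for the others. Carhsp1 had 1 such copy, Gm9791, at 99.3% over 447 nt, and Ybx3 had 0. The gene body of Carhsp1 overlaps that of Pmm2, on the opposite strand, by 3888 nt, but their exons share 0 nt. How reads that map to several places were counted is not given in the sources used here, so the share of Ybx1 reads lost to or gained from copies is unknown. The same copies apply to each library.

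The genes nearest to each member in both ratios to IgG were found among 10664 genes with a mean of 50 or more. For Ybx1 they were Rars2, Cyfip1 and Slc20a1, at distances of 0.0055, 0.0091 and 0.0098 on the log2 scale. Cyfip1, for example, had a normalized count of 1405 with anti-YB-1, 1174 with anti-HuR and 1372 with IgG. For Ybx3 they were Slc44a1, Haus5 and Tmco6, at 0.023, 0.035 and 0.04. For Carhsp1 they were Dnaaf2, Pex11c and Ctsl, at 0.018, 0.028 and 0.032, and Ctsl stood at 11493, 8718 and 6104. The likeness covers 3 libraries only, and several of these genes have far fewer reads than the members.

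Proteins that share mRNA particles with YB-1 formed the first list around the members. Of 33 mRNAs of such partners, 2 passed 2-fold upward and 11 passed it downward in YB-1 over IgG, or 6.06% and 33.3% against 17.0% and 32.8% of all genes (median log2 ratio -0.58). The counts were 7 and 7 in HuR over IgG, or 21.2% each against 18.9% and 31.1% (median -0.07). In HuR over YB-1 they were 15 and 1, or 45.5% and 3.03% of the list against 19.3% and 10.6% of all genes, and the median was 0.78 against -0.06. Srsf9, a splicing factor reported to bind YB-1, had the highest ratio, at 683 with anti-YB-1, 8215 with anti-HuR and 968 with IgG in normalized counts. Igf2bp1, an mRNA-binding protein of growing cells, had the lowest, at 38.3, 0 and 11.5 in the same order. Pcbp2, a poly(C)-binding protein, stood at 7129, 36026 and 18068. Pabpc1, the poly(A)-binding protein that is known to counter YB-1 on the Ybx1 message, stood at 3616, 5322 and 50286, so both antibody libraries were far below IgG. Pabpc1 is also among the 1368 genes 8-fold or more higher in IgG than in both other libraries, and the part of that library's make-up was not tested.

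Kinases, ubiquitin ligases and transcriptional regulators that act on YB-1 were the second list. Of 15 measured genes, 2 passed 2-fold upward and 7 downward in YB-1 over IgG, or 13.3% and 46.7% against 17.0% and 32.8% of all genes (median -0.74). In HuR over IgG 1 and 4 did so, or 6.67% and 26.7% against 18.9% and 31.1% (median 0.39). In HuR over YB-1 it was 4 and 0, or 26.7% and 0% against 19.3% and 10.6% (median 0.61). Akt1 and Akt2, kinases known to phosphorylate YB-1, stood at 9498 and 8316 with anti-YB-1, 7454 and 11266 with anti-HuR, and 5702 and 6554 with IgG. Gsk3b had the highest HuR over YB-1 ratio, a log2 ratio of 2.09, and the kinase Mapk3 the lowest, at -0.92.

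The lists tied to the other members were smaller. All the lists described here overlap in part, so they are not separate observations. Akt1 and Rps6ka1 are counted in both the kinase list and the Carhsp1 list. Pabpc1, Ccnd1, Myc, Pcna and Ybx1 are each counted among the YB-1 targets below and in another list. Of 8 junction and cell cycle genes tied to Ybx3, 1 passed 2-fold upward and 0 downward in YB-1 over IgG (median log2 ratio -0.17), where 17.0% and 32.8% of all genes did. The counts were 3 and 1 in HuR over IgG (median 0.52), against 18.9% and 31.1% of all genes, and 2 and 0 in HuR over YB-1 (median 0.03), against 19.3% and 10.6%. Cdk4, the cyclin-dependent kinase that ZONAB binds, had normalized counts of 7586 with anti-YB-1, 5210 with anti-HuR and 2524 with IgG, and Ccnd1, its cyclin partner, at 826, 2964 and 842. Arhgef2, the exchange factor GEF-H1, stood at 7170, 10741 and 3605. Of 10 measured genes around calcineurin and Carhsp1, 0 passed 2-fold upward and 7 downward in YB-1 over IgG (median -1.83), and 0 and 6 did so in HuR over IgG (median -2.0). The downward shares were 70.0% and 60.0%, against 32.8% and 31.1% of all genes. In HuR over YB-1 the counts were 1 and 0, or 10% and 0% against 19.3% and 10.6% of all genes, and the median was -0.08. Ppp3r1, the regulatory subunit of calcineurin, stood at 1584 with anti-YB-1, 4404 with anti-HuR and 3550 with IgG, and the calcineurin inhibitor Rcan2 at 566, 380 and 4280. The adult fibre markers, also far higher in IgG, lie on the same side as these genes, and their part in this was not tested. Tnf, the known target of Carhsp1, had no ratio, with 0 in both antibody libraries.

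Genes and mRNAs reported as YB-1 targets lay on both sides of IgG. Of 22, 8 passed 2-fold upward and 7 downward in YB-1 over IgG, or 36.4% and 31.8% against 17.0% and 32.8% of all genes (median 0.14). The counts were 9 and 6 in HuR over IgG, or 40.9% and 27.3% against 18.9% and 31.1% (median 0.18). Abcb1a, at 0 with both antibodies and 367 with IgG, is among the downward genes of both ratios. It reached the minimum mean only through IgG, so its direction follows from the filter. Of 21 with a ratio of HuR to YB-1, 4 passed upward and 2 downward, or 19.0% and 9.52%, near the 19.3% and 10.6% of all genes (median -0.18). Myog, at the centre of the series, had normalized counts of 45679 with anti-YB-1, 229849 with anti-HuR and 13754 with IgG, and the ribosomal protein mRNA Rps3 at 15543, 7374 and 6572. Several list medians near 0 turned when centred on ribosomal protein genes. The reported targets went from 0.14 to -1.06 in YB-1 over IgG, from 0.18 to -0.32 in HuR over IgG and from -0.18 to 0.57 in HuR over YB-1. The kinases and regulators went from 0.39 to -0.11 in HuR over IgG, and in HuR over YB-1 the Carhsp1 list went from -0.08 to 0.67 and the cold-shock domain genes from -0.35 to 0.39. The cold-shock domain genes also went from 0.03 to -1.17 in YB-1 over IgG. The mRNP partners in HuR over IgG went from -0.07 to 0.12, and the Ybx3 list in YB-1 over IgG from -0.17 to 0.07, when scaled to total reads. Beside Myog, at 3.32-fold in YB-1 over IgG, Ybx1 at 1.02 is a member of this list that showed little difference on the authors' scaling. Centred on ribosomal protein genes, the log2 ratios of Myog and Ybx1 went from 1.73 and 0.03 to 0.53 and -1.17.

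**Figure D5:**
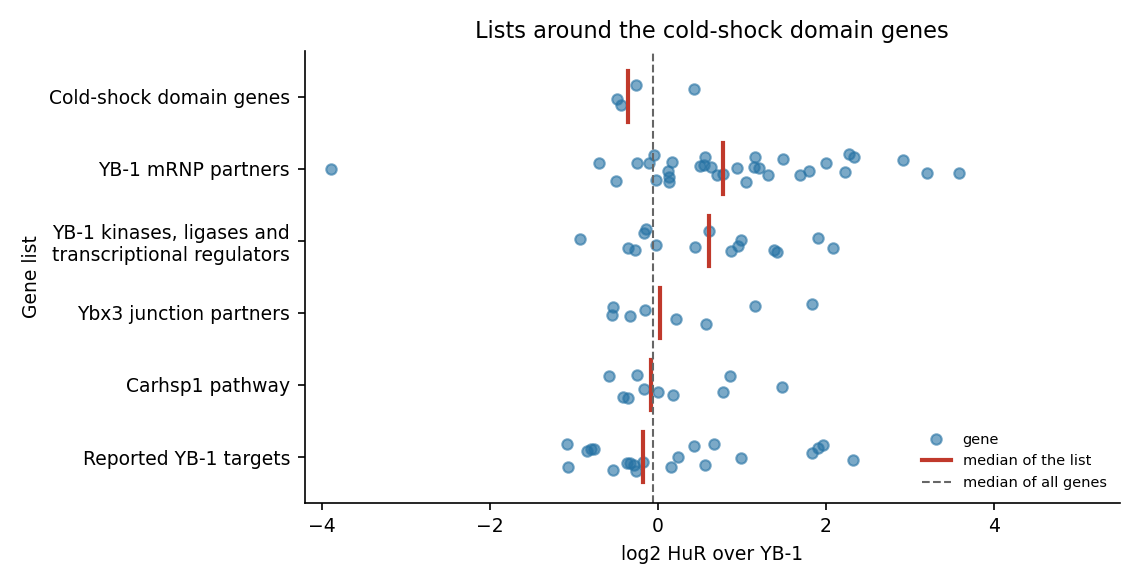
log2 ratio of HuR to YB-1 for each measured gene of 6 lists (points, spread vertically for legibility), with each list's median in red and the median of all genes dashed at -0.06. The mRNP partners sit mostly to the right, with a median of 0.78, while the cold-shock domain genes lie between -0.48 and 0.43 with a median of -0.35 (0.39 centred on ribosomal protein genes).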

How the data were processed

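RNA immunoprecipitation libraries of C2C12 cells, 1 per antibody, were analysed from a single table. The submitters' processing notes name TopHat2 2.0.10 and HTSeq 0.6.1, besides DESeq2, and the builds mm10 and GRCm38. Parameters and strand settings are not given in the sources at hand. The tag siCtl on each library's column has no explanation in the labels.

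The deposited values are a signal per gene, the read count divided by the authors' size factor. The deposited table also holds the authors' log2 fold changes of YB-1 over IgG (moderated and unmoderated), a standard error, a Wald score and p-values. No deposited adjusted p was below 0.05 (the smallest was 0.845), while 213 genes had an unadjusted deposited p-value below it, 4 higher and 209 lower.

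Whole reads were recovered for 100% of values within 0.01 read. A read was worth 0.531 (YB-1), 0.862 (HuR) and 2.29 (IgG) normalized counts. No count test was run, since 1 library per antibody leaves no residual spread. The 25 rows holding a date in place of a symbol, 0.123% to 0.304% of reads, were left out.

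Ratios were unmoderated. A library at 0 was set to 3 reads, and pairs with 3 or fewer in both gave no ratio. The minimum mean was 10, taken over all 3 libraries for ratios to IgG and over the 2 antibody libraries for HuR over YB-1. Intervals are exact 95% Clopper-Pearson intervals. Those of a ratio of folds are approximate, from the reciprocal read counts. All cover counting error only: without molecular identifiers, reads need not be separate molecules. The ratio code was tested on simulated data.

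Lists were matched by current or older symbol. Named genes were the 3 members, the cold-shock domain genes, the 3 genes nearest to each member by Euclidean distance, and in each list the highest and lowest HuR over YB-1 ratio and the 2 highest means. 1 gene of the cold-shock domain list is not reported here, and counts, medians and shares leave it out. Members and lists were chosen with earlier results of these data known. Loci, 3' UTRs and motifs came from GENCODE M21 (GRCm38), taking the principal transcript with the longest coding region, and copies from BLAST 2.17.0. The ratios were computed with Python 3.11.15, numpy 2.4.6 and scipy 1.17.1.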

Additional observations from a re-analysis of the deposited data

How the results depend on the processing

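With 1 library per antibody, no library could be left out and no spread estimated. No paired analysis was possible because each antibody has a single library. The members' log2 ratios, given for Ybx1, Ybx3 and Carhsp1 in that order, depended on the scaling. YB-1 over IgG became 0.26, -0.52 and 1.18 scaled to total reads, -1.17, -1.95 and -0.25 centred on 79 ribosomal protein genes, and 0.20, -0.58 and 1.12 centred on the median of all genes. The deposited moderated fold gave -0.65 for Ybx3 and 0.80 for Carhsp1. HuR over IgG became -0.04, -0.13 and 0.70 scaled to total reads, -0.73, -0.81 and 0.01 centred on ribosomal protein genes, and -0.07, -0.16 and 0.67 centred on the median. HuR over YB-1 became -0.30 for Ybx1 and 0.39 for Ybx3 scaled to total reads, with Carhsp1 at -0.48, inside its counting interval. It became 0.48, 1.17 and 0.31 centred on ribosomal protein genes, and -0.21, 0.49 and -0.38 centred on the median. Centring on ribosomal protein genes thus put Ybx1 and Ybx3 past 2-fold lower in YB-1 over IgG and Ybx3 past 2-fold higher in HuR over YB-1, and Carhsp1 was past 2-fold higher in YB-1 over IgG scaled to total reads or to the median. Centring on ribosomal protein genes also moved counts of all genes by over 1.5 times: to 270 higher (2209 with the authors' size factors) and 7854 lower (4265) in YB-1 over IgG, 1473 higher (2466) in HuR over IgG, and 4424 higher (2289) and 448 lower (1263) in HuR over YB-1. A mean of 50 or more left 804 genes lower in HuR over YB-1. The 3 genes nearest to Ybx1 kept 2 of their number at a mean of 1000 or more, and those nearest to Ybx3 and Carhsp1 kept 1 each. Ratios between members do not depend on scaling. Depth limits Lin28a, Lin28b and Ybx2, where 0 reads only bounds the level.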
